A study of Mus musculus with 8 samples.

Results

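Expression of 10 genes of the transforming growth factor beta (TGF-beta) and bone morphogenetic protein (BMP) family was examined in cultured mouse podocytes and parietal epithelial cells (PECs), 2 epithelial cell types of the kidney glomerulus. The genes were listed by name as members of this family, and all 10 were among the 22237 genes measured. They were the ligand genes Tgfb1, Tgfb2, Tgfb3, Inhba, Bmp4 and Bmp7, the BMP antagonist gene Grem1, and the receptor genes Tgfbr1, Tgfbr2 and Tgfbr3.

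Podocytes cover the glomerular capillaries and PECs line the capsule around them. TGF-beta ligands are secreted in a latent form and, after release, bind the type II receptor TGFBR2, which recruits and phosphorylates the type I receptor TGFBR1, which in turn phosphorylates SMAD2 and SMAD3. TGFBR3, also called betaglycan, is a co-receptor without kinase activity that presents ligand, TGF-beta 2 in particular. BMPs use other receptors and the SMAD1, SMAD5 and SMAD8 branch, and gremlin 1 binds BMPs outside the cell and blocks them. In the kidney, TGF-beta signalling is known for its part in glomerular scarring, and BMP7 for its part in nephron formation.

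The 8 arrays fell into 4 groups of 2: podocytes in EGM-MV, podocytes in RPMI, PECs in EGM-MV and PECs in RPMI. EGM-MV is an endothelial growth medium enriched with growth factors. RPMI was used as a plainer medium. Both held fetal calf serum, with more in EGM-MV, so a difference between media includes the serum. Podocytes came from Pod-rtTA/LC1/R26R mice and PECs from PEC-rtTA/LC1/R26R mice, all female and of a mixed background with 75% Sv129. Their age was not given in the sources used here. Doxycycline switched on Cre in the chosen cell type and left a beta-galactosidase tag for good, but not in every cell of the type, and the PEC line was driven by a rabbit podocalyxin promoter. Decapsulated glomeruli were used for podocytes and capsulated ones for PECs. Outgrowths of 7 to 14 days in EGM-MV were sorted on the tag with 2 mM fluorescein di-beta-galactopyranoside and then passaged. Mouse line and the kind of glomeruli used thus go with the cell type, and their parts cannot be told apart. There were 2 independent cultures of each cell type, each kept in both media, and replicates 1 and 2 are these cultures. Markers of podocytes, PECs and other glomerular cells could not be checked, since the files name genes by Ensembl identifier alone and the annotation used here named 0 of the 22237 identifiers.

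Values are log2 intensities, so that a difference of 1 is a 2-fold change, and array medians lay between 6.21 and 6.32. Differences between podocytes and PECs are given as podocytes minus PECs, and differences between media as EGM-MV minus RPMI. They were tested by limma over all 22237 genes in a fit to the 4 group means, with p-values adjusted by the Benjamini-Hochberg method and called below 0.05. SE is the moderated standard error of this fit. Only 2 cultures stood behind each cell type, and the fit holds no term for culture. Its p-values rest on the spread between the 2 arrays of a group, pooled over the 4 groups. The 2 arrays of a culture are treated as independent, and the pairing of media within a culture is not used. In such cultures fewer expressing cells and less RNA per cell cannot be told apart.

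In EGM-MV, 7 of the 10 genes differed between podocytes and PECs, against 32.2% of all genes. Of these, 3 were higher in podocytes (16.6% of all genes) and 4 lower (15.5%). In RPMI, 5 of 10 differed, against 28.4% of all genes, 4 being higher in podocytes (15.5% of all genes) and 1 lower (12.8%). Averaged over both media 5 of 10 were called, against 41.4% of all genes, with 3 higher in podocytes (20.2% of all genes) and 2 lower (21.2%), so this count is near the background. With 1 mean per culture 4 of 10 were called, against 33.3% of all genes, and Bmp4 was lost (limma adjusted p = 0.0843). Among the 13255 genes with a mean of at least 6 in some group, 50.2% were called in EGM-MV, 45.5% in RPMI and 61% over both media. In that fit 8, 6 and 6 members were called, so the counts in RPMI and over both media are near the background of such genes.

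The media differed for 5 of 10 genes in podocytes, against 13.7% of all genes. Of these, 1 was higher in EGM-MV (7.70% of all genes) and 4 were lower (5.99%). In PECs 6 of 10 differed, against 12.3% of all genes, with 4 higher in EGM-MV (7.64% of all genes) and 2 lower (4.62%). Over both cell types 5 of 10 differed, against 21.6% of all genes, with 2 higher in EGM-MV (12.8% of all genes) and 3 lower (8.81%). The 2 higher in this average were Grem1, at -0.05 in podocytes, and Tgfbr3, at -0.15 in PECs, so neither was higher in both cell types. The response to the medium itself differed between the cell types for 3 of 10 genes, against 2.99% of all genes (0.671% to 2.93% with single arrays left out). All 3 had the lower value in podocytes, as did 1.51% of all genes. Among the 13255 genes with a mean of at least 6 in some group, 23.2% differed between media in podocytes and 20.9% in PECs. There 36.5% differed over both cell types and 5.46% in their response. In that fit 6, 5, 5 and 4 members were called, in the same order. The median size of the 10 differences was 0.80 between cell types in EGM-MV and 0.62 in RPMI, against 0.19 and 0.18 over all genes. For the medium it was 0.78 in podocytes and 0.88 in PECs, against 0.11 and 0.14 over all genes. The medians over all genes include genes with a mean below 6 in every group, while all 10 members reached 6 in some group. Medians among the 13255 genes were not taken. These comparisons of cell types and of media share arrays and are not independent of each other. The 2 PEC cultures lay far apart in several of these genes, and results that rest on 1 of them are given with and without it. Without moderation of the variances, the calls of Bmp4, Bmp7 and Tgfbr3 between cell types were lost. Of the calls between media, those that remained without moderation were Tgfb1 and Inhba in podocytes, Tgfb1 and Grem1 in PECs, and Tgfb2 and Grem1 over both cell types.

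**Figure D1:**
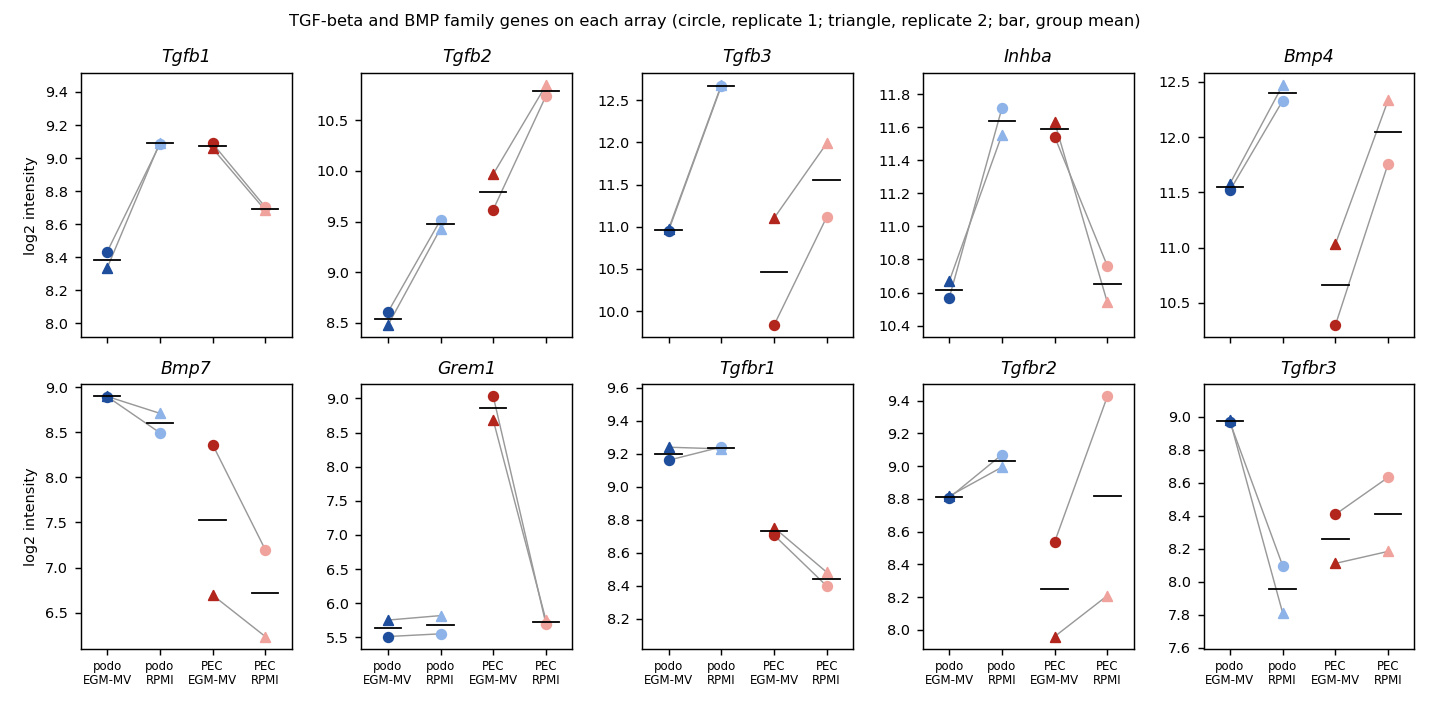
Log2 intensity of each of the 10 genes (vertical axes, 1 scale per gene) on each of the 8 arrays, by cell type and medium (horizontal axes). Circles are replicate 1, triangles replicate 2, bars group means, and grey lines join the arrays of a culture. The lines of Tgfb1 and Inhba slope one way in podocytes and the other way in PECs, Grem1 stands at 9.03 and 8.68 in PECs in EGM-MV and below 6 on the other arrays, and the PEC cultures of Tgfb3, Bmp7 and Tgfbr2 lie far apart.

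Among the TGF-beta ligands, Tgfb2 (ENSMUSG00000039239_at) was lower in podocytes than in PECs in both media and lower in EGM-MV than in RPMI in both cell types. It measured 8.60 and 8.47 in podocytes in EGM-MV, 9.52 and 9.43 in podocytes in RPMI, 9.62 and 9.97 in PECs in EGM-MV, and 10.74 and 10.85 in PECs in RPMI (log2 intensity, replicates 1 and 2). No podocyte array reached the lowest PEC array, and within each cell type the EGM-MV arrays were below the RPMI arrays. The difference between cell types was -1.26 ± 0.12 (SE) in EGM-MV, 2.39-fold, with an adjusted p of 0.000252 from limma, and -1.32 ± 0.12 in RPMI, 2.5-fold, with an adjusted p of 0.000234. The difference between media was -0.94 ± 0.12 in podocytes (limma adjusted p = 0.00299) and -1.002 ± 0.12 in PECs (limma adjusted p = 0.00381). The 2 differences between media differed by 0.07 with a 95% confidence interval of -0.34 to 0.47 and were not called different (limma adjusted p = 0.914). Fitted on the 4 PEC arrays alone, that of Tgfb2 in PECs missed the threshold (limma adjusted p = 0.0546, and 0.00065 to 0.0638 over all alternatives).

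Tgfb1 (ENSMUSG00000002603_at), the isoform most studied in renal fibrosis, had opposite responses to the medium. It measured 8.43 and 8.33 in podocytes in EGM-MV against 9.08 and 9.09 in podocytes in RPMI. In PECs it measured 9.09 and 9.06 in EGM-MV against 8.70 and 8.68 in RPMI. Podocytes in RPMI and PECs in EGM-MV thus shared the highest level, PECs in RPMI came next, and podocytes in EGM-MV were lowest, with no overlap between these steps. In podocytes Tgfb1 was lower in EGM-MV, at -0.71 ± 0.07 on the log2 scale (SE, limma adjusted p = 0.00111). In PECs it was higher in EGM-MV by 0.38 ± 0.07 (limma adjusted p = 0.0163), a call that was lost when any 1 PEC array was left out, at adjusted p-values between 0.0501 and 0.0644. Podocytes were therefore lower than PECs in EGM-MV, by -0.69 ± 0.07 (limma adjusted p = 0.000338), and higher in RPMI, by 0.40 ± 0.07 (limma adjusted p = 0.00517). The response in podocytes minus that in PECs was -1.09 ± 0.10 (SE, limma adjusted p = 0.0034), and 410 of the 22237 genes had a larger one in either direction.

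Tgfb3 (ENSMUSG00000021253_at) was lower in EGM-MV than in RPMI in each of the 4 cultures. It measured 10.95 and 10.97 in podocytes in EGM-MV, 12.67 and 12.68 in podocytes in RPMI, 9.83 and 11.10 in PECs in EGM-MV, and 11.11 and 11.99 in PECs in RPMI. The podocyte cultures lay almost on each other, while the PEC cultures differed by 1.27 in EGM-MV and by 0.87 in RPMI, replicate 2 being higher. In podocytes the level in EGM-MV was lower, at -1.71 ± 0.40 on the log2 scale (SE, limma adjusted p = 0.0304), 3.27-fold. That call was lost when any of the 4 podocyte arrays was left out, while the difference stayed between -1.70 and -1.72. Its SE is pooled over the 4 groups and came mostly from the PEC arrays. The standard deviation of Tgfb3 was 0.014 and 0.008 in podocytes in EGM-MV and RPMI, against 0.90 and 0.62 in PECs. In PECs the difference of -1.09 ± 0.40 was not called (limma adjusted p = 0.134), but within cultures, with culture as a block, it was (limma adjusted p = 0.000899, and 0.000522 to 0.428 over all alternatives). Between cell types no call was made for Tgfb3, with differences of 0.50 ± 0.40 in EGM-MV (limma adjusted p = 0.409) and 1.12 ± 0.40 in RPMI (limma adjusted p = 0.0791). In EGM-MV the sign depended on the PEC culture, since the difference was -0.14 (limma adjusted p = 0.791) without PEC EGM-MV replicate 1 and 1.13 (limma adjusted p = 0.032) without PEC EGM-MV replicate 2. In RPMI the Tgfb3 difference was 0.68 without PEC RPMI replicate 1 (limma adjusted p = 0.313). It was called without PEC RPMI replicate 2, at 1.56 (limma adjusted p = 0.0352), and without either PEC EGM-MV array, at 1.12 (limma adjusted p = 0.0145).

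Inhba (ENSMUSG00000041324_at) encodes the beta A subunit, which forms activin A as a dimer and inhibin A together with the alpha subunit. Activin A signals through SMAD2 and SMAD3 as TGF-beta does. Inhba measured 10.57 and 10.67 in podocytes in EGM-MV, 11.72 and 11.56 in podocytes in RPMI, 11.54 and 11.63 in PECs in EGM-MV, and 10.76 and 10.54 in PECs in RPMI. Podocytes in RPMI and PECs in EGM-MV were both high and overlapped, and the other 2 groups were both low and overlapped. In podocytes Inhba was lower in EGM-MV, at -1.02 ± 0.10 (SE, limma adjusted p = 0.00109), and in PECs it was higher in EGM-MV by 0.94 ± 0.10 (limma adjusted p = 0.00276). The difference between podocytes and PECs was -0.97 ± 0.10 in EGM-MV (limma adjusted p = 0.000371) and 0.99 ± 0.10 in RPMI (limma adjusted p = 0.000411). Averaged over both media it was 0.01, with a 95% confidence interval of -0.16 to 0.18, so that the opposite differences cancelled in that average. The response in podocytes minus that in PECs was -1.96 ± 0.15 (SE, limma adjusted p = 0.00174), 3.88-fold, and 78 of the 22237 genes had a larger one. Of the variation of Inhba over the 8 arrays, 97.5% lay in this term, against 7.24% for all genes together.

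**Figure D2:**
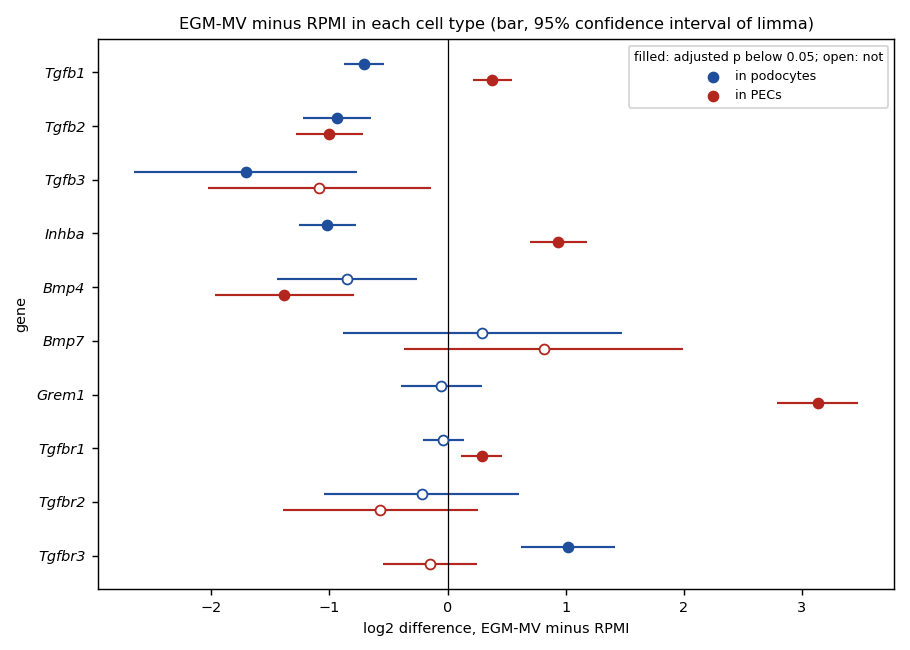
EGM-MV minus RPMI on the log2 scale (horizontal axis) for each gene (vertical axis), in podocytes (blue) and in PECs (red), with 95% confidence intervals of limma and filled points for an adjusted p below 0.05. Tgfb1 and Inhba lie left of 0 in podocytes and right of 0 in PECs, Tgfb2 lies left in both, and Grem1 lies at 3.13 in PECs with an interval that includes 0 in podocytes.

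Of the BMP ligands, Bmp4 (ENSMUSG00000021835_at) was lower in EGM-MV in each of the 4 cultures. It measured 11.52 and 11.58 in podocytes in EGM-MV, 12.33 and 12.47 in podocytes in RPMI, 10.30 and 11.03 in PECs in EGM-MV, and 11.76 and 12.33 in PECs in RPMI. The EGM-MV arrays did not overlap the RPMI arrays in either cell type, and PEC replicate 2 was above PEC replicate 1 in both media. In PECs the level in EGM-MV was lower, at -1.38 ± 0.25 on the log2 scale (SE, limma adjusted p = 0.0146), which missed the threshold when the 4 PEC arrays were fitted alone (limma adjusted p = 0.101, and 0.000119 to 0.126 over all alternatives). In podocytes the difference of -0.85 ± 0.25 was not called (limma adjusted p = 0.0679), and with culture as a block it was (limma adjusted p = 0.000584, and 0.000415 to 0.531 over all alternatives). The block took the culture differences out of the pooled spread. For Bmp4 these were 11.1% of the variation for PEC cultures and 0.262% for podocyte cultures, so the change of call in podocytes came mainly from the PECs. Over both cell types the difference between media was -1.12 ± 0.18 (limma adjusted p = 0.00448). The responses differed by 0.53 ± 0.36 between the cell types, not called without the block (limma adjusted p = 0.567) and called with it (limma adjusted p = 0.0416, and up to 0.961 over all alternatives).

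Between cell types Bmp4 was higher in podocytes in EGM-MV, by 0.88 ± 0.25 (SE, limma adjusted p = 0.0317). This call did not survive the removal of a podocyte array (adjusted p of 0.114 and 0.135 without EGM-MV replicates 1 and 2, and 0.0626 without either RPMI replicate). Without PEC EGM-MV replicate 1, the lowest Bmp4 array, the difference was 0.52 (limma adjusted p = 0.132). In RPMI podocytes and PECs overlapped in Bmp4 and the difference of 0.35 ± 0.25 was not called (limma adjusted p = 0.35).

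Bmp7 (ENSMUSG00000008999_at), a ligand made by the developing and adult kidney, was higher in podocytes over both media. It measured 8.90 and 8.90 in podocytes in EGM-MV, 8.49 and 8.71 in podocytes in RPMI, 8.36 and 6.70 in PECs in EGM-MV, and 7.20 and 6.23 in PECs in RPMI. Every podocyte array was above every PEC array, and PEC replicate 2 was below PEC replicate 1 in both media, ending near the array medians. Over both media the difference between podocytes and PECs was 1.63 ± 0.36 (SE, limma adjusted p = 0.00802), 3.09-fold. In RPMI it was 1.89 ± 0.51 (limma adjusted p = 0.0277), and in EGM-MV 1.37 ± 0.51, which was not called (limma adjusted p = 0.079).

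The Bmp7 difference over both media lay between 1.21 and 2.04 with each of the 8 arrays left out in turn. Each such fit keeps every culture. Without both arrays of PEC replicate 1 the difference was 2.28, and without those of PEC replicate 2 it was 0.97, so its size depended on the PEC culture. The difference was 1.68 without both arrays of podocyte replicate 1 and 1.57 without those of podocyte replicate 2, and neither was called. With 1 mean per culture the call over both media held (limma adjusted p = 0.0355). In RPMI the call was lost when any 1 of the 4 podocyte arrays was left out, at adjusted p-values between 0.0509 and 0.116, and without PEC RPMI replicate 2, when the Bmp7 difference was 1.40 (limma adjusted p = 0.12). In EGM-MV the difference was 2.20 without PEC EGM-MV replicate 1 and 0.53 without PEC EGM-MV replicate 2. The Bmp7 value in EGM-MV was above that in RPMI in 4 of 4 cultures, by 0.29 ± 0.51 in podocytes (limma adjusted p = 0.837) and by 0.81 ± 0.51 in PECs (limma adjusted p = 0.354), and neither was called. With culture as a block the Bmp7 difference in PECs was called (limma adjusted p = 0.012, and 0.00201 to 0.98 over all alternatives), but it was -0.02 without PEC EGM-MV replicate 1. With that block the Bmp7 difference over both cell types, 0.55, was called as well (limma adjusted p = 0.00863).

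Grem1 (ENSMUSG00000074934_at), which encodes gremlin 1, stood out in a single group. It measured 5.51 and 5.75 in podocytes in EGM-MV, 5.55 and 5.82 in podocytes in RPMI, 9.03 and 8.68 in PECs in EGM-MV, and 5.69 and 5.75 in PECs in RPMI. Only PECs in EGM-MV were above 6, and the other 6 arrays were below the median of all genes and overlapped each other. A level this low may be background, so folds were also taken with group means below 6 set to 6. In PECs Grem1 was higher in EGM-MV than in RPMI by 3.13 ± 0.15 (SE, limma adjusted p = 0.00011), at least 7.24-fold, and 5 of the 22237 genes had a larger difference between media in PECs. In podocytes the corresponding difference was -0.05 ± 0.15 (limma adjusted p = 0.913).

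In EGM-MV podocytes were thus below PECs in Grem1 by -3.22 ± 0.15 (SE, limma adjusted p = 1.33e-05), again at least 7.24-fold lower, and 58 genes differed more. In RPMI the difference was -0.04 ± 0.15 (limma adjusted p = 0.883), with both cell types below 6. The response to the medium in podocytes minus that in PECs was -3.19 ± 0.21 for Grem1 (SE, limma adjusted p = 0.00091). With group means below 6 set to 6 it was -2.86, since Grem1 was below 6 in all groups but PECs in EGM-MV. Grem1 with Tgfb1 and Inhba made up the 3 genes called for a different response, all with a lower value in podocytes. Without moderation of the variances these 3 calls were lost, at adjusted p-values of 0.0803 for Grem1, 0.073 for Tgfb1 and 0.0803 for Inhba, and 1 of all 22237 genes was called. They were also lost without both arrays of either podocyte culture, which leaves the PEC cultures alone to give the spread.

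Promoter sequences are shown for 5 of these genes. Tgfb2 and Bmp4 were lower in EGM-MV over both cell types, Tgfb1 and Inhba responded in opposite directions, and Grem1 was high in a single group. The 250 bases before the transcription start are from RefSeq (mouse build GRCm38.p6), which had such windows for 7 of the 10 genes. It had none for Tgfb3, Bmp7 and Tgfbr3, and Tgfb3 was also lower in EGM-MV over both cell types (limma adjusted p = 0.0122). They are written 5′ to 3′ on the strand of the gene. Capitals mark matches on either strand to 6 motifs, which are TATAAA for the core promoter element of that kind, CACGTG for the E-box, CCAAT for the element bound by NF-Y, GGGCGG for the GC box, CAGAC for the Smad box and TGANTCA for the AP-1 site. These motifs were chosen after the values were known, and no matches of different motifs overlap in these windows.
Tgfb2, chr1:186705990-186706239, minus strand: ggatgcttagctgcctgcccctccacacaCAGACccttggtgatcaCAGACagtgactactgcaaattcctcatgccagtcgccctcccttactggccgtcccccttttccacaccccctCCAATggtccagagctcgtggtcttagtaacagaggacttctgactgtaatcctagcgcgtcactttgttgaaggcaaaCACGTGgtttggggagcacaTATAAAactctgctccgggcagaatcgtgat
Bmp4, chr14:46390670-46390919, minus strand: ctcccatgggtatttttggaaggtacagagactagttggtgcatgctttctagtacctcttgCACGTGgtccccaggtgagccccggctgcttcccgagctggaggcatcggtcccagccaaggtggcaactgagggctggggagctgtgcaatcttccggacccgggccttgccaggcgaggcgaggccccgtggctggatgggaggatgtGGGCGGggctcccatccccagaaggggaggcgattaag
Tgfb1, chr7:25686752-25687001, plus strand: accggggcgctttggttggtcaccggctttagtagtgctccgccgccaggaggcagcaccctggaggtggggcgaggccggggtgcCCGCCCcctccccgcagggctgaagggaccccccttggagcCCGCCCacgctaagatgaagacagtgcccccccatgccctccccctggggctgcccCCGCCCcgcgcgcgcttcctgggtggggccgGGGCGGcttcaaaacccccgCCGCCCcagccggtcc
Inhba, chr13:16011601-16011850, plus strand: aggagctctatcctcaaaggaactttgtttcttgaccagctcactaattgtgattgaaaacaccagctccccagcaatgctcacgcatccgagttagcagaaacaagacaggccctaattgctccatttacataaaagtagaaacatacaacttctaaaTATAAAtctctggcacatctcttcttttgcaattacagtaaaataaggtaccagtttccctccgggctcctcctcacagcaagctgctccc
Grem1, chr2:113758649-113758898, minus strand: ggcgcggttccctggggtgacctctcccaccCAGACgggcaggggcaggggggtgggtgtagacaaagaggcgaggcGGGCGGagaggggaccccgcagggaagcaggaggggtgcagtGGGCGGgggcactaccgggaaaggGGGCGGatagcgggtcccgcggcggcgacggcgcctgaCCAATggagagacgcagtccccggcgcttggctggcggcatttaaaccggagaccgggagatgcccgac

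The windows of Tgfb2 and Bmp4 both held CACGTG, which begins 51 bases before the start in Tgfb2 and 188 bases before it in Bmp4. The window of Tgfbr2, which was lower in EGM-MV in 4 of 4 cultures but not called in the main fit, held no CACGTG. Among the 32851 promoter windows of the same length, 6.02% held this motif. Tgfb2 also held TATAAA 31 bases before the start, as did 12.4% of all windows anywhere in their length, 1 CCAAT (33.8%) and 2 Smad boxes (42.2%). The windows of Tgfb1 and Inhba had no motif in common. Tgfb1 held 5 GC boxes, a motif found in 32.7% of windows, and Inhba held TATAAA alone, 91 bases before the start. Grem1 held 3 GC boxes, 1 CCAAT and 1 Smad box. No window shown held the AP-1 site, which is found in 6.75% of all windows. A match describes the sequence and does not show a binding site.

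Of the receptors, Tgfbr1 (ENSMUSG00000007613_at), the type I kinase, varied little within groups. It measured 9.16 and 9.24 in podocytes in EGM-MV, 9.24 and 9.23 in podocytes in RPMI, 8.71 and 8.75 in PECs in EGM-MV, and 8.40 and 8.48 in PECs in RPMI. All podocyte arrays were above all PEC arrays. Tgfbr1 was higher in podocytes by 0.47 ± 0.07 in EGM-MV (SE, limma adjusted p = 0.00225) and by 0.79 ± 0.07 in RPMI (limma adjusted p = 0.000238). Cell type accounted for 89.6% of its variation over the arrays. In podocytes the media differed by -0.04 ± 0.07 (limma adjusted p = 0.877). In PECs Tgfbr1 was higher in EGM-MV by 0.29 ± 0.07 (limma adjusted p = 0.0444), but the call was lost when any 1 of the 8 arrays was left out, at adjusted p-values between 0.059 and 0.171. The 2 differences between media were not called different from each other, at -0.32 ± 0.10 (limma adjusted p = 0.173).

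Tgfbr2 (ENSMUSG00000032440_at), the type II receptor that binds ligand first, was not called in any comparison. It measured 8.81 and 8.82 in podocytes in EGM-MV, 9.07 and 8.99 in podocytes in RPMI, 8.54 and 7.96 in PECs in EGM-MV, and 9.42 and 8.21 in PECs in RPMI. The podocyte arrays were close together, and the PEC arrays in RPMI lay on either side of them. The difference between podocytes and PECs was 0.56 ± 0.35 in EGM-MV (SE, limma adjusted p = 0.284) and 0.21 ± 0.35 in RPMI (limma adjusted p = 0.702). In EGM-MV Tgfbr2 was called without either PEC RPMI array, at the same difference (limma adjusted p = 0.0409), while leaving out single PEC EGM-MV arrays gave 0.27 and 0.85 with no call. In RPMI Tgfbr2 was 0.82 higher in podocytes without PEC RPMI replicate 1 (limma adjusted p = 0.0292), and the difference was -0.39 without PEC RPMI replicate 2 (limma adjusted p = 0.244). Its value in EGM-MV was below that in RPMI in 4 of 4 cultures, with differences of -0.22 ± 0.35 in podocytes (limma adjusted p = 0.822) and -0.57 ± 0.35 in PECs (limma adjusted p = 0.355). With culture as a block, the difference of Tgfbr2 in PECs was called (limma adjusted p = 0.0309, and 0.00328 to 0.941 over all alternatives), and so was the difference of -0.39 over both cell types (limma adjusted p = 0.0234).

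Tgfbr3 (ENSMUSG00000029287_at), the co-receptor betaglycan, was the only member higher in EGM-MV in podocytes by the test. It measured 8.97 and 8.98 in podocytes in EGM-MV, 8.10 and 7.81 in podocytes in RPMI, 8.41 and 8.11 in PECs in EGM-MV, and 8.63 and 8.18 in PECs in RPMI. Podocytes in EGM-MV were above all other arrays and podocytes in RPMI below all of them, with the PEC groups between and overlapping. In podocytes EGM-MV was higher by 1.02 ± 0.17 (SE, limma adjusted p = 0.00824), 2.02-fold, and in PECs the difference was -0.15 ± 0.17 (limma adjusted p = 0.64). The podocyte call was lost without EGM-MV replicate 1, EGM-MV replicate 2 or RPMI replicate 2, at adjusted p-values of 0.0657, 0.0589 and 0.0712. The responses of the cell types differed by 1.17 ± 0.24, just outside the threshold without the block (limma adjusted p = 0.0512) and inside it with culture as a block (limma adjusted p = 0.00404, and up to 0.429 over all alternatives).

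Between cell types Tgfbr3 was higher in podocytes in EGM-MV by 0.71 ± 0.17 (SE, limma adjusted p = 0.0153). That call was lost without podocyte EGM-MV replicate 1 (adjusted p = 0.0761 from limma), without podocyte EGM-MV replicate 2 or without PEC EGM-MV replicate 2 (adjusted p = 0.078 each from limma). In RPMI the Tgfbr3 difference was -0.45 ± 0.17 and was not called (limma adjusted p = 0.0911). The ligand Tgfb2 and this co-receptor, which presents it, had opposite differences in podocytes, where EGM-MV went with less Tgfb2 and more Tgfbr3 in both cultures. This was not particular to Tgfb2, since Tgfb1, Tgfb3, Inhba and Bmp4 were also lower in EGM-MV in both podocyte cultures, while Bmp7 was higher.

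**Figure D3:**
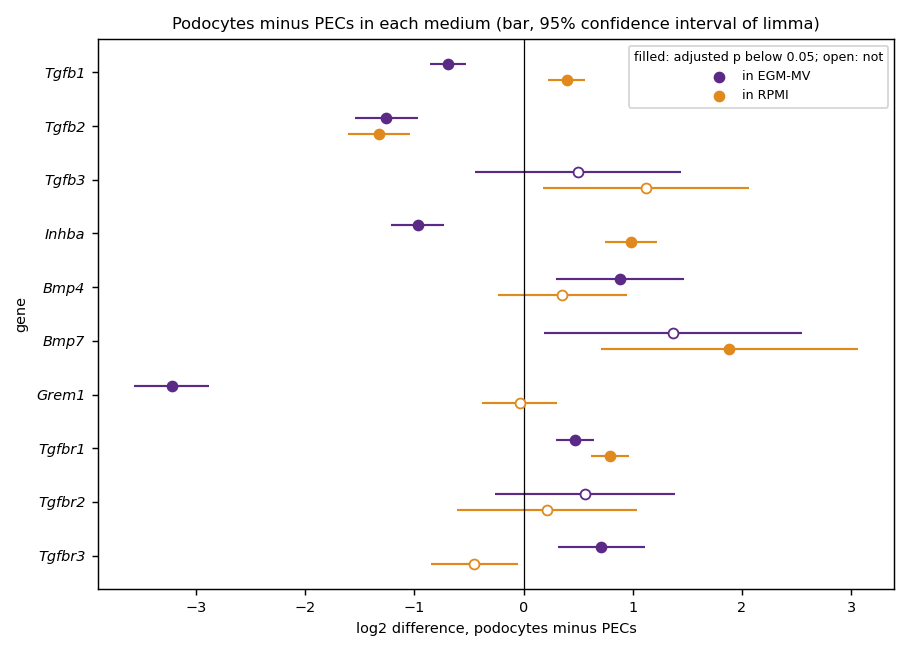
Podocytes minus PECs on the log2 scale (horizontal axis) for each gene (vertical axis), in EGM-MV (purple) and in RPMI (orange), with 95% confidence intervals of limma and filled points for an adjusted p below 0.05. Tgfb2 lies left of 0 and Tgfbr1 right of 0 in both media, Tgfb1 and Inhba change sides, and Grem1 lies at -3.22 in EGM-MV and -0.04 in RPMI.

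The 2 PEC cultures differed in several of these genes, and in the same direction in both media. Replicate 2 minus replicate 1 was 1.27 in EGM-MV and 0.87 in RPMI for Tgfb3, 0.73 and 0.57 for Bmp4, -1.67 and -0.96 for Bmp7, and -0.58 and -1.22 for Tgfbr2. A larger difference between these cultures was found in 0.437% of all genes in EGM-MV and 1.33% in RPMI for Tgfb3, in 1.79% and 3.3% for Bmp4, in 0.167% and 1.04% for Bmp7, and in 3.17% and 0.581% for Tgfbr2. PEC replicate 2 thus had more Tgfb3 and Bmp4 and less Bmp7 and Tgfbr2 than PEC replicate 1. The median size of the 10 differences between PEC cultures was 0.35 in EGM-MV and 0.33 in RPMI, against 0.11 in both for all genes. Between the podocyte cultures it was 0.07 in EGM-MV and 0.11 in RPMI, against 0.07 and 0.12 for all genes, and the largest was 0.29, for Tgfbr3 in RPMI. All genes here again include those with a mean below 6 in every group. These differences between cultures were not tested, and preparation and purity of a culture cannot be told apart.

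**Figure D4:**
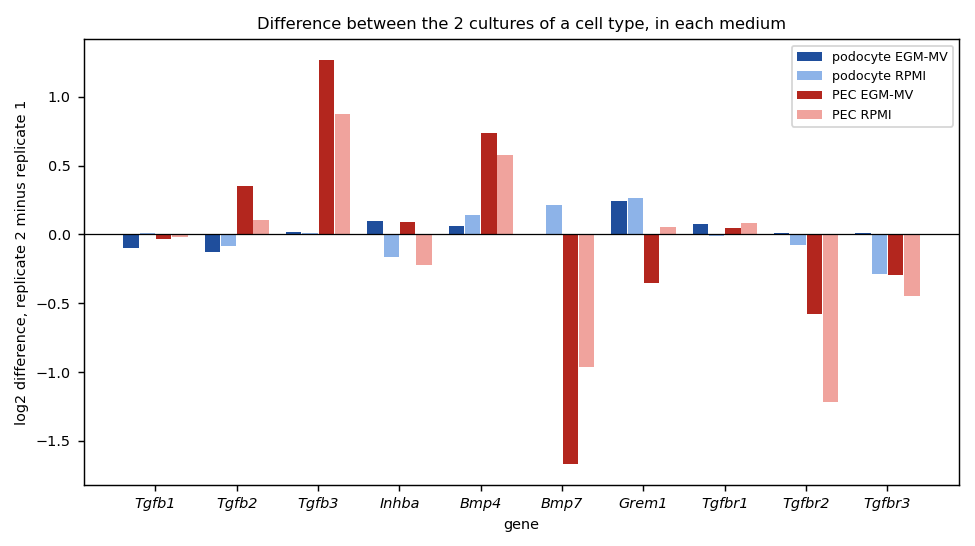
Difference between the 2 cultures of a cell type, replicate 2 minus replicate 1 on the log2 scale (vertical axis), for each gene (horizontal axis), cell type and medium (colours). Podocyte bars stay within 0.29 of 0, while PEC bars reach 1.27 for Tgfb3 and -1.67 for Bmp7 in EGM-MV and -1.22 for Tgfbr2 in RPMI.

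The genes differed in what most of their variation over the 8 arrays followed. Cell type took the largest share for Tgfbr1 (89.6%), Bmp7 (66.8%) and Tgfb2 (62.9%). The medium took the largest share for Bmp4 (64.8%) and Tgfb3 (59.2%). The cell type by medium term took the largest for Inhba (97.5%), Tgfb1 (85.2%) and Tgfbr3 (53.2%). For Tgfbr2 the PEC cultures took 57.2%. For Grem1, below 6 in 3 of 4 groups, cell type took 34.8%, the medium 31.1% and the cell type by medium term 33.3%, and no order is read from them. Over all genes together cell type took 60.6%, medium 22.1%, the cell type by medium term 7.24% and the cultures 10.1%. These shares describe the 8 arrays and carry no test.

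**Figure D5:**
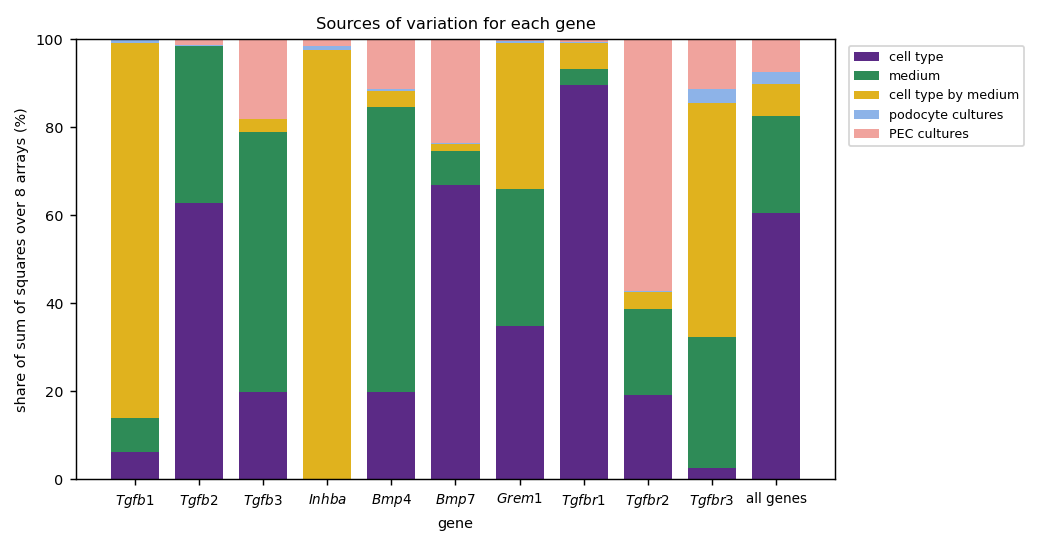
Share of the sum of squares over the 8 arrays in percent (vertical axis) for each gene and for all genes together (horizontal axis), divided among cell type, medium, cell type by medium, podocyte cultures and PEC cultures. The cell type by medium share is 97.5% for Inhba and 85.2% for Tgfb1 against 7.24% for all genes, and the PEC cultures take 57.2% for Tgfbr2.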

How the data were processed

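Total RNA of 4 cultures, each in 2 media, was hybridised to Affymetrix Mouse Gene 1.0 ST arrays. The deposited log2 values were made by the authors in JMP Genomics with 1 probe set per Ensembl gene. Their steps were background correction by RMA, quantile normalization and removal of outlying data points. Changes are therefore relative to other genes, and the number of arrays limits the precision.

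Tests used limma 3.58.1 in R 4.3.3 on all 22237 genes, with 4 group means, 4 residual degrees of freedom and no filter on low values. Single replicates came from a second table of the same values (22215 genes, all 10 members included). By its culture number in the column names and by the methods, a replicate is the same culture in both media, so the number pairs media within a cell type. Replicate differences correlated between media across genes at r = 0.533 in PECs and 0.0732 in podocytes. Between the cell types, which share no culture, r lay between 0.0157 and 0.0813, a range that includes the podocyte value. The pairing of podocyte arrays thus rests on the column names and the methods, not on this correlation.

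All 10 members are named. Members and lists were chosen with earlier results of these data known. Lists of further pathway genes and cell type markers were not used here, since 0 identifiers could be named. Alternatives covered normalization, a filter at a mean of 6, the variance model, culture blocks and the omission of arrays or cultures.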

Additional observations from a re-analysis of the deposited data

Results flagged for a closer look

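For 3 of the 10 genes the cell types responded differently to the medium by a test of that difference. The response in podocytes minus that in PECs was -1.09 for Tgfb1 (limma adjusted p = 0.0034), -3.19 for Grem1 (limma adjusted p = 0.00091, and -2.86 with group means below 6 set to 6) and -1.96 for Inhba (limma adjusted p = 0.00174) on the log2 scale, and 2.99% of all genes were called in this comparison. Both cultures of each cell type showed the direction for Tgfb1 and Inhba, with lower values in EGM-MV in 2 of 2 podocyte cultures and higher values in 2 of 2 PEC cultures. For Grem1 the PEC cultures differed between media by 3.34 and 2.93, and the podocyte cultures by -0.04 and -0.07.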

How the results depend on the processing

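The limits are the small number of cultures and the pooled spread. The PEC cultures spread more than the podocyte cultures, so calls depend on which arrays give the variance. Without both arrays of podocyte replicate 1 or replicate 2, fewer members were called in every comparison. No member kept its call for the medium in podocytes or for the cell type by medium term. Over all genes these fits without podocyte replicate 1 and replicate 2 called 24.4% and 26.6% between cell types over both media, 15.4% and 16.2% in EGM-MV, 11.8% and 13% in RPMI, 4.48% and 3.99% for the medium over both cell types, 0.644% and 0.482% in podocytes, 1.68% each in PECs and 0.0045% each for the cell type by medium term. In these fits the remaining podocyte culture is assumed to vary like the PECs. Fits without both arrays of a PEC replicate likewise assume that the remaining PEC culture varies like the podocytes. There the shares of all genes called between cell types stayed close to those of the main fit. Without PEC replicate 1 in both media, 8 were called between cell types over both media and 5 for the cell type by medium term. Without PEC replicate 2 in both media, 9 were called between cell types in RPMI and 6 for the cell type by medium term. Over all genes, without PEC replicate 1 and replicate 2, 5.58% and 5.5% were called for that term and 20.9% each for the medium in podocytes.

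With single arrays left out, the members called lay between 4 and 6 over both media, 5 and 8 in EGM-MV and 4 and 6 in RPMI between cell types. For the medium they lay between 3 and 6 over both cell types, 3 and 6 in podocytes and 4 and 6 in PECs, and for the cell type by medium term between 3 and 4. Over all genes the shares called lay between 32.2% and 40.9% over both media, 20% and 33.4% in EGM-MV and 18.8% and 29.3% in RPMI between cell types, between 12.1% and 20.1% for the medium over both cell types, 4.15% and 15.1% in podocytes and 7.21% and 10.6% in PECs, and between 0.671% and 2.93% for the cell type by medium term, each lowest without a podocyte array. Gene-wise variances without moderation gave 3 members for the medium over both cell types, 2 in podocytes, 2 in PECs and 0 for the cell type by medium term. The 4 PEC arrays alone gave 2 for the medium in PECs. Culture as a fixed replicate block, which compares media within a culture, gave 5 for the cell type by medium term, and the changed calls of members stand beside the results. Over all genes that block called 7.22% for the cell type by medium term and 19.2% for the medium in PECs, while the 4 arrays of a cell type alone called 20.8% for the medium in podocytes and 1.68% in PECs. Repeated normalization, median centring, the filter at a mean of 6 and the random block moved no count of members by more than 1.5 times.

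Signs turned only for differences that were not called. With single arrays left out, the difference of Inhba lay between -0.0476 and 0.063 between cell types over both media and between -0.0957 and 0.0149 between media over both cell types. That of Tgfb3 between cell types in EGM-MV lay between -0.1387 and 1.1308. Between cell types in RPMI Tgfbr2 lay between -0.3934 and 0.8224 and Grem1 between -0.17 and 0.097. Between media in podocytes Tgfbr1 lay between -0.0746 and 0.0044 and Grem1 between -0.1863 and 0.0808. In PECs Tgfbr2 lay between -1.1768 and 0.0391, Tgfbr3 between -0.3727 and 0.0756 and Bmp7 between -0.0213 and 1.6482. For the cell type by medium term Tgfb2 lay between -0.1094 and 0.2412, Tgfb3 between -1.2596 and 0.01, Tgfbr2 between -0.2591 and 0.9568 and Bmp7 between -1.3535 and 0.3161. Without podocyte replicate 1 in both media, Inhba gave -0.0072 between cell types and 0.0252 between media, Grem1 0.097 between cell types in RPMI and Tgfbr1 0.0101 between media in podocytes. Without PEC replicate 1 in both media, Inhba gave 0.037 between media, Tgfb3 -0.1387 between cell types in EGM-MV and Tgfb2 -0.0567 for the cell type by medium term. Without PEC replicate 2 in both media, Inhba gave -0.0254, Tgfbr2 -0.0593 and Tgfbr3 -0.0558 between cell types over both media, and Tgfbr2 gave -0.3934 in RPMI, there with an adjusted p of 0.0184 from limma. Repeated quantile normalization gave -0.0829 for Inhba between cell types over both media and 0.0734 for Grem1 in RPMI. Median centring gave 0.0383 for Grem1 between cell types in RPMI and -0.0092 for Tgfb2 in the cell type by medium term.

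Over all genes, without moderation the calls were 10.6% for the medium over both cell types, 4.87% in podocytes, 1.61% in PECs, 18.3% between cell types in RPMI and 0.0045% for the cell type by medium term. Median centring put the share of higher calls at 65.9% (54.8% before) between cell types in RPMI and at 37% (49.5% before) for the cell type by medium term. For the medium in PECs repeated quantile normalization put it at 52.2% and median centring at 71.6% (62.3% before). The cause was not tested.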
